A study of Mus musculus with 4 samples.

Results

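The mouse oligoadenylate synthetase (OAS) genes Oas1a, Oas2, Oas3, Oasl1 and Oasl2 were chosen by name, as 5 of the 21044 genes in the deposited expression table, and were followed through RNA-seq libraries of microglia from the corpus callosum of mice at postnatal day 7. The tested mice carried the genotype the submitters call Lag3cKO-Cx3, labelled ko (cKO here, 2 libraries), in which the immune checkpoint receptor gene Lag3 was deleted conditionally through a driver abbreviated Cx3. The controls were Lag3fl/fl, labelled wt (WT here, 2 libraries), so both groups hold the floxed allele. No source used here says whether the controls carry the driver or whether a library is 1 pup or a pool, and the tests below thus speak only of the spread among these 4 libraries, which may be technical. Oas1b, Oas1c and Oas1g were not among the 5 and are described as genes of the same pathway.

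OAS enzymes are nucleotidyltransferases that sense double-stranded RNA. When bound to it, they join ATP into 2′-5′-linked oligoadenylates, a second messenger of antiviral defence. Type I interferon induces the OAS genes through a complex that holds STAT2 and IRF9 and binds interferon-stimulated response elements in their promoters, and microglia in an interferon-responsive state are known for such transcripts. Oas1a, Oas2 and Oas3 encode synthetases built from increasing numbers of OAS units. Oasl1 encodes an OAS-like protein with ubiquitin-like domains that, in mice, lacks synthetase activity and represses translation of Irf7, and Oasl2 encodes an OAS-like protein that keeps synthetase activity.

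All 5 genes lie on mouse chromosome 5 in 2 clusters (GRCm38, the build the positions in the deposited tables matched). Oasl2 (ENSMUSG00000029561, 114896936 to 114912234) and Oasl1 (ENSMUSG00000041827, 114923240 to 114937915) are neighbours on the plus strand. Oas2 (ENSMUSG00000032690, 120730333 to 120749853), Oas3 (ENSMUSG00000032661, 120753098 to 120777661) and Oas1a (ENSMUSG00000052776, 120896256 to 120907521) lie on the minus strand, and Oas1c, Oas1b and Oas1g lie between Oas3 and Oas1a. The core of the interferon-stimulated response element, searched on both strands as GAAA, any 2 bases and GAAA again, was found in the 300-base RefSeq promoter windows (GRCm38.p6, running from upstream of the start to just inside the gene) of Oas1a and Oas3, 2 of the 4 members with a window (Oas1a, Oas3, Oasl1 and Oasl2), and in those of Oas1g and Oas1c. Among all 32851 windows, 3.44% held it. The stretches that hold it are shown because genes with the same letters differed in how they varied across the libraries. Capitals mark the matches, which overlap each other in Oas1a, Oas1g and Oas1c, and each stretch is given 5′ to 3′ on the strand of its gene.
Oas1a, chr5:120907526-120907575, minus strand: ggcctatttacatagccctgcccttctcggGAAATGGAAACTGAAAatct
Oas1g, chr5:120887614-120887663, minus strand: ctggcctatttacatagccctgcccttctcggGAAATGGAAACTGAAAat
Oas3, chr5:120777710-120777759, minus strand: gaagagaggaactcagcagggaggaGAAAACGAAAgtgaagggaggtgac
Oas1c, chr5:120812604-120812653, minus strand: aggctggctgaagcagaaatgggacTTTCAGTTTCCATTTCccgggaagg
The stretches of Oas1a and Oas1g were identical over all 48 bases that can be set against each other. In Oas1c the matches lie on the opposite strand, 114 to 99 bases before the start, against 20 to 5 bases before it in Oas1a. Oas1b, on the plus strand, starts at 120812635, within the stretch shown for Oas1c. The matches thus also lie just before the start of Oas1b, and on its strand they spell the same letters as in Oas1a. Transcripts of Oas1a and Oas1g are also close copies, with 57.6% of the 50-base words of Oas1a present in another annotated gene, in each case Oas1g. Reads may thus have been split between them or left out. Of the words of Oas2 and Oasl1 none was shared, and of those of Oas3 and Oasl2 0.521% and 0.138% were. Exons of Oasl1 overlap the antisense gene Gm13822 by 38 bases.

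The libraries held 16770162 and 14645187 counts in cKO and 15855913 and 14973059 in WT. The targeted gene Lag3 was at 35.4 and 17.1 CPM (read counts scaled to library size, with TMM normalization here and below) in the cKO libraries, against 386 and 682 CPM in the WT libraries, and Cx3cr1, the fractalkine receptor gene, at 3398 and 3028 CPM, against 6430 and 6541 CPM. Lower Lag3 and lower Cx3cr1 thus go together in every comparison of cKO with WT below. What each contributes was not tested. The microglial markers Tmem119, P2ry12 and Csf1r were present in every library, and 12 microglial markers summed to 30784 and 28946 CPM in cKO and to 29285 and 32562 CPM in WT. The second cKO library stood apart. It had no count for 13.4% of the 13086 genes tested, against 1.80% to 3.75% in the other 3, and across genes its log2 CPM had Pearson correlations of 0.727 to 0.753 with theirs, where those among the other 3 libraries were 0.815 to 0.868. It also differed in sex-linked transcripts, with Xist at 289.8 CPM and Ddx3y at 0, whereas cKO replicate 1 had 6.95 and 106.7 CPM of them, and the WT libraries 0 of Xist and 94.5 and 89.0 CPM of Ddx3y. What this contributes to the values below was not tested beyond leaving out each library.

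Oas1a, Oas2 and Oasl1 were higher in both cKO libraries than in both WT libraries, Oasl2 was higher in 1 of the 2, and Oas3 did not separate the genotypes. None of the 5 passed edgeR's quasi-likelihood test at an adjusted p under 0.05 over all genes, where 0% of the 13086 genes tested passed. The lowest edgeR adjusted p of any gene was 0.9997, so this test set no gene apart, whether a member or not. Even the deleted gene Lag3, with a fitted log2 fold change of -4.35, had that edgeR adjusted p. Its DESeq2 adjusted p was 1.46e-20. None of the 5 passed DESeq2, where 0.387% of 13448 genes did. Both cKO values lay above both WT values, called higher without overlap from here on, for 3 of the 5 genes, where 15.8% of all genes tested did so, and without WT replicate 1 for 5 of them, where 24.6% did so. Taking cKO replicate 1 alone, 4 of the 5 exceeded both WT libraries, all but Oasl2 (36.0% of all genes tested), and taking cKO replicate 2 alone, 4 did, all but Oas3 (36.7%). All 5 had a fitted log2 fold change above 0, where 48.2% of all genes tested did, and 4 had one above 1, where 10.2% did. The median log2 fold change of the 5 genes was 2.40, against -0.03 over all genes tested. In bulk RNA, more cells expressing a gene and more RNA per cell cannot be told apart, and with 2 libraries against 2 an exact two-sided permutation test of a single value cannot go below p = 0.333.

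**Figure D1:**
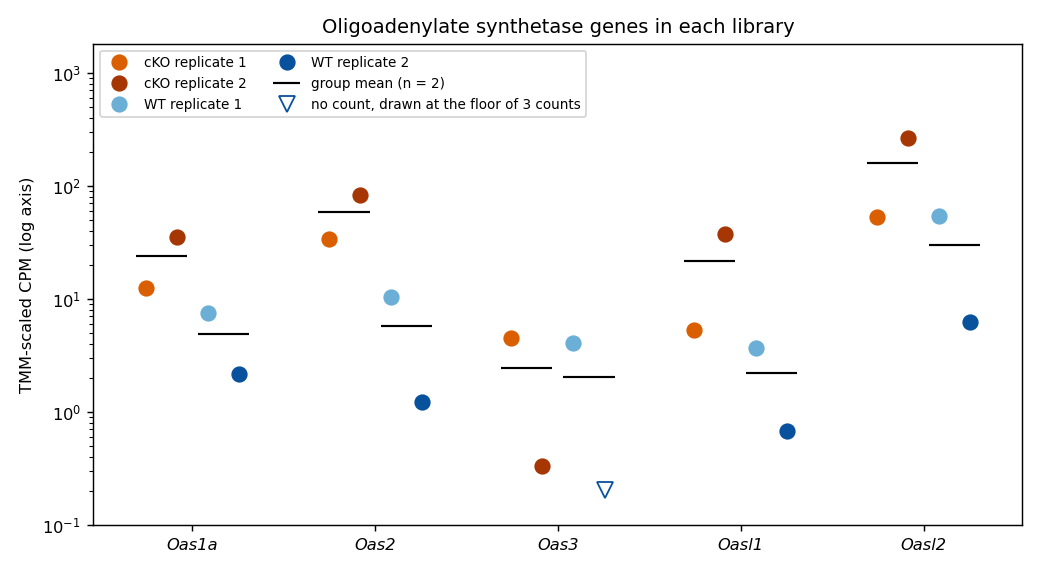
TMM-scaled CPM on a log axis for each of the 5 genes, with cKO libraries left of WT libraries, points for single libraries and bars for the mean of the 2 libraries of a group. Oas1a, Oas2 and Oasl1 do not overlap between genotypes, WT replicate 2 is lowest for every gene, and the 0 of Oas3 in WT replicate 2 is drawn at the level of 3 counts.

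Oas2, the synthetase with a pair of OAS units, and Oasl1 had the largest fitted changes of the 5 with all libraries in the fit. Their order turned without cKO replicate 1 and without WT replicate 2, and Oas3 exceeded both without WT replicate 1. Oas2 had 571 and 1240 counts, or 33.9 and 82.5 CPM, in the cKO libraries, against 162 and 18 counts, or 10.3 and 1.23 CPM, in the WT libraries. The genotypes did not overlap, and each library differed from every other beyond counting error. The level was 58.2 ± 34.3 CPM in cKO and 5.77 ± 6.42 CPM in WT (SD, n = 2 each), and the fitted log2 fold change was 3.33 (SE 1.13, edgeR adjusted p = 0.9997). Its unadjusted edgeR p of 0.0345 was under 0.05, as it was for 4.65% of all genes tested in either direction and 1.77% in the same one, and its DESeq2 adjusted p was 0.0620. Between single libraries, cKO replicate 1 exceeded WT replicate 1 by 3.29-fold (95% exact interval 2.76 to 3.94, covering counting error only, as do those that follow), whereas WT replicate 1 exceeded WT replicate 2 by 8.41-fold (5.16 to 14.5). The spread between the control libraries was thus wider than the smallest difference between a cKO and a WT library.

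Oas1a, the small synthetase, followed the same order of libraries over a narrower range. It had 209 and 532 counts, or 12.4 and 35.4 CPM, in the cKO libraries, against 119 and 32 counts, or 7.57 and 2.18 CPM, in the WT libraries. Its fitted log2 fold change was 2.29 (SE 0.92, edgeR adjusted p = 0.9997, DESeq2 adjusted p = 0.466). Oas1a in cKO replicate 1 was 1.64-fold that in WT replicate 1 (1.30 to 2.07), and in cKO replicate 2 it was 2.85-fold that in cKO replicate 1 (2.42 to 3.36). Its copy Oas1g had 151 and 371 counts in cKO and 25 and 2 counts in WT, a fitted log2 fold change of 4.27 (SE 1.41). Of the reads given to either gene, Oas1g took 41.9% and 41.1% in the cKO libraries and 17.4% and 5.88% in the WT libraries. With the reads of both genes summed, the pair was at 21.4 and 60.1 CPM in cKO and at 9.17 and 2.32 CPM in WT, so the sum separated the genotypes as well. How reads that match both genes were counted is not given, so the sum may leave some of them out.

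Oas3, the largest synthetase, did not follow Oas2, its neighbour. It had 76 and 5 counts, or 4.52 and 0.333 CPM, in the cKO libraries, against 64 and 0 counts, or 4.07 and 0 CPM, in the WT libraries. The genotypes overlapped, with the first library of each high and the second near 0. The fitted log2 fold change was 0.25 (SE 2.49, edgeR adjusted p = 0.9997), and its sign turned when either cKO replicate 1 or WT replicate 2 was left out, to -2.59 and -0.75. In cKO replicate 2, where Oas2 was highest, Oas3 was at 0.0737-fold its level in cKO replicate 1 (0.0233 to 0.180). A low count there was not rare. Of 426 genes with 50 to 100 counts in both first replicates, 24.4% had at most 5 counts in cKO replicate 2, 2.35% had so few in WT replicate 2 and 1.88% had so few in both, limits chosen after the values of Oas3 were seen.

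Among the OAS-like genes, Oasl1 kept the genotypes apart narrowly. It had 89 and 568 counts, or 5.29 and 37.8 CPM, in the cKO libraries, against 58 and 10 counts, or 3.69 and 0.681 CPM, in the WT libraries. Its fitted log2 fold change was 3.29 (SE 1.36, edgeR adjusted p = 0.9997, DESeq2 adjusted p = 0.324), and it was 1.27 without cKO replicate 2. Oasl1 in cKO replicate 1 was 1.43-fold that in WT replicate 1, with an interval of 1.02 to 2.03 that nearly reaches equality.

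Oasl2 was the most abundant of the 5 by FPKM in 3 of the 4 libraries, all but WT replicate 2, and overlapped between genotypes. It had 888 and 3983 counts, or 52.8 and 265 CPM, in the cKO libraries, against 846 and 92 counts, or 53.8 and 6.27 CPM, in the WT libraries. The first library of each genotype had nearly the same level, a ratio of 0.980 (0.891 to 1.08), while cKO replicate 2 exceeded cKO replicate 1 by 5.02-fold (4.67 to 5.41) and WT replicate 1 exceeded WT replicate 2 by 8.59-fold (6.92 to 10.8). The fitted log2 fold change was 2.40 (SE 1.25, edgeR adjusted p = 0.9997), and it was 0.81 without cKO replicate 2.

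**Figure D2:**
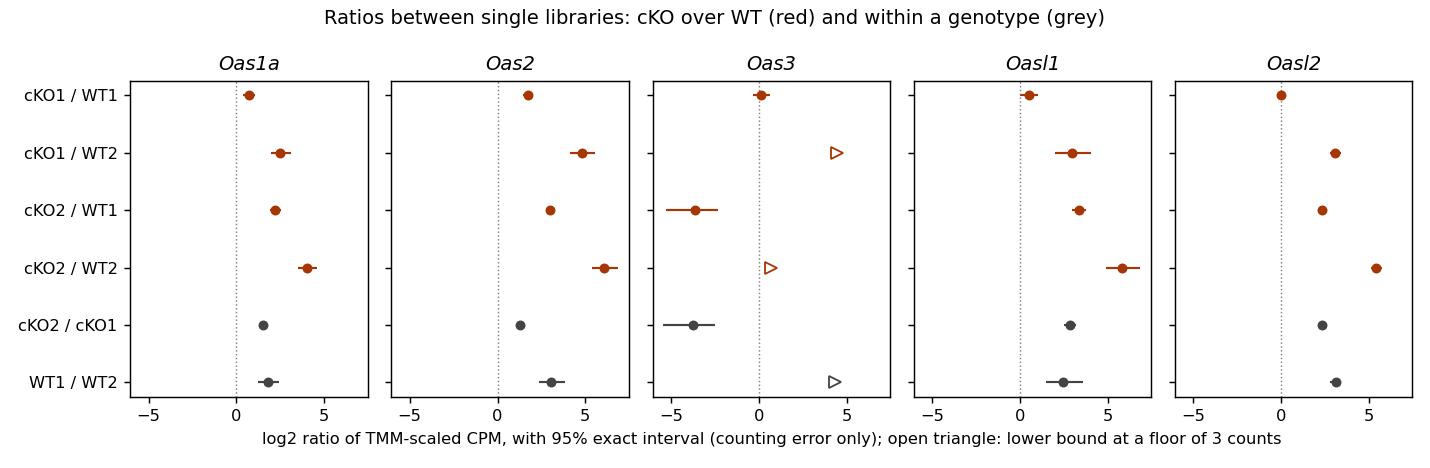
Log2 ratios of TMM-scaled CPM between single libraries for each gene, cKO over WT in red and within a genotype in grey, with 95% exact intervals for counting error and open triangles for lower bounds where the denominator had no count. Ratios within a genotype are as large as many between genotypes, such as 8.59 for Oasl2 in WT replicate 1 over WT replicate 2 (about 3.10 on the log2 scale).

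The difference between the replicates of a genotype was shared by most of the family. WT replicate 1 was above WT replicate 2 for all 5 genes, with a median log2 ratio of 3.04, against -0.01 over all genes tested. Oas3 counted there with 64 counts against 0, at least 19.9-fold at a floor of 3 counts per library, a bound above that median. In cKO replicate 2 over cKO replicate 1 the median was 1.51, with 4 of the 5 higher and Oas3 lower, against -0.08 over all genes tested. For cKO replicate 1 over WT replicate 1, the pair of libraries closest in these genes, the median was 0.51, against -0.01 over all genes tested. Oas2 differed most between that pair, by 1.72 on the log2 scale, and Oasl2 least, by -0.03. In each of the 5 genes the highest library was cKO and the lowest was WT replicate 2.

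Levels were compared between genes on the FPKM scale, which divides by length. Oasl2 was at 8.31 and 42.7 FPKM in cKO and at 8.37 and 0.964 FPKM in WT. Oas2 was at 7.65 and 19.0 FPKM in cKO and at 2.30 and 0.270 FPKM in WT, and Oas1a at 6.61 and 19.3 FPKM in cKO and at 3.98 and 1.13 FPKM in WT. Oasl1 was at 2.03 and 14.9 FPKM in cKO and at 1.40 and 0.256 FPKM in WT, and Oas3 stayed at or below 0.641 FPKM in all 4 libraries. Oasl2 ranked first in 3 libraries and Oas1a in WT replicate 2, while Oas3 was lowest in all 4 and Oasl1 next to lowest. By group means, Oasl2 led with 25.5 ± 24.3 FPKM in cKO and 4.67 ± 5.24 FPKM in WT (SD, n = 2 each). No neighbours in either order of means differed by more than the SD of the higher one. Summed over the 5 genes, the level was 25.2 and 95.9 FPKM in the cKO libraries and 16.6 and 2.62 FPKM in the WT libraries.

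**Figure D3:**
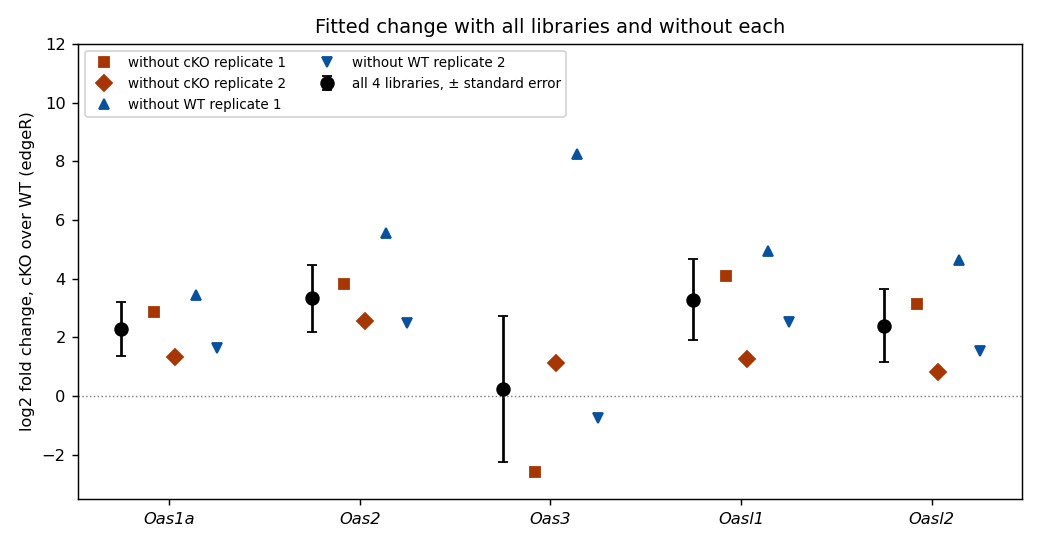
EdgeR log2 fold change of cKO over WT for each gene, fitted on all 4 libraries with its standard error (black) and without each library in turn (red squares and diamonds for cKO, blue triangles for WT). Oas1a, Oas2, Oasl1 and Oasl2 stay above 0 in every fit, over 2.49 to 5.55 for Oas2, while Oas3 spans -2.59 to 8.24.

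The authors' deposited tables compare 1 cKO library with 1 WT library each, share libraries with each other, and call a gene at a 2-fold difference or more and a p under 0.05. In the authors' deposited tables all 4 comparisons called Oas2 higher, as they did 1.62% of the 18459 genes in them, with log2 fold changes of 1.74 and 4.82 for cKO replicate 1 over WT replicates 1 and 2, and 3.05 and 6.14 for cKO replicate 2. In the authors' deposited tables Oas1a, Oasl1 and Oasl2 were called higher in the 3 comparisons other than cKO replicate 1 over WT replicate 1, where 17.1% to 18.1% of genes were called higher in a table. In that remaining one of the authors' deposited tables, where 20.3% of genes were called higher, Oas1a had a log2 fold change of 0.73, Oasl1 of 0.54 and Oasl2 of -0.01. Oas3 was called higher against WT replicate 2 by both cKO libraries and lower in cKO replicate 2 over WT replicate 1 in the authors' deposited tables, with a log2 fold change of -3.56. The p-values of these tables rest on 1 library a side.

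The rest of the OAS pathway was followed in lists of named genes. Of 7 further OAS genes listed, 3 had counts. Oas1g was higher without overlap, as given above, with a DESeq2 adjusted p = 0.0913. Oas1c, a paralogue, ran the other way, with 1 and 0 counts in cKO and 34 and 17 counts in WT, and a fitted log2 fold change of -5.44 (SE 2.00, edgeR adjusted p = 0.9997). Its exons overlap the antisense gene Gm43069 by 227 of 2405 exon bases. Reads in that stretch cannot be told from those of Gm43069 unless strand was used. With both strands searched, 371 of the 2453 50-base words of Oas1c were present in another annotated gene. Gm43069 held the most of them, 154. Oas1b, a polymorphic pseudogene whose intact form is known for resistance to flaviviruses in mice, had 57 and 0 counts in cKO and 26 and 0 counts in WT, so both second libraries had none. Oas3 was likewise low there, with 5 and 0 counts.

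Of 4 genes tied to the turnover of oligoadenylates or named in that list, none was higher without overlap, where 15.8% of all genes tested were. Abce1, a ribosome recycling factor, was at 132.9 and 137.7 CPM in cKO and at 137.7 and 131.1 CPM in WT. Pde12, a phosphodiesterase that degrades the oligoadenylates, was at 15.7 and 10.6 CPM in cKO and at 17.9 and 18.0 CPM in WT, and so was lower without overlap, as 20.0% of all genes tested were. The phosphodiesterase genes Cnp and Enpp1 overlapped between genotypes, with fitted log2 fold changes of 0.14 and -0.29. None of these 4 genes passed edgeR (adjusted p = 0.9997 each, 0% of all genes tested) or DESeq2 (0.387% of 13448 genes).

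A list of sensors of double-stranded RNA and adaptors that pass on their signal had 11 genes with counts. All 11 had a fitted fold change above 0 (48.2% of all genes tested), with 1.02 as the median on the log2 scale, and 5 were higher without overlap (15.8%). That count was 9 without cKO replicate 1, where 36.7% of all genes tested were so, and 9 without WT replicate 1, where 24.6% were. Ifih1, encoding the sensor MDA5, was at 113 and 135.9 CPM in cKO and at 51.4 and 30.0 CPM in WT, a fitted log2 fold change of 1.61 (SE 0.35), and passed DESeq2 (adjusted p = 0.0236) but not edgeR (adjusted p = 0.9997). Eif2ak2, encoding the kinase PKR, was at 40.6 and 63.4 CPM in cKO and at 30.0 and 18.0 CPM in WT. Dhx58, a helicase gene related to Ifih1, and Tlr3, an endosomal receptor gene, were also higher without overlap, and their fitted log2 fold changes were 1.92 and 1.39. In the list 0 genes passed edgeR (0% of all genes tested) and 1, Ifih1, passed DESeq2 (0.387% of 13448 genes).

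The list of interferon receptor signalling, which holds more than the factors that drive OAS genes, was split. Of 15 genes of interferon receptor signalling, 5 were higher and 3 lower without overlap, where 15.8% and 20.0% of all genes tested were. Their median log2 fold change was 0.04. Of them 0 passed edgeR (0% of all genes tested) and 0 passed DESeq2 (0.387% of 13448 genes). Without WT replicate 1, 8 were higher (24.6% of all genes tested). Without cKO replicate 1, 6 were lower (45.6%), and without WT replicate 2, 5 were lower (31.4%). Stat2 was at 108.3 and 99.0 CPM in cKO and at 79.8 and 51.6 CPM in WT, and Irf9 at 200.7 and 230.2 CPM in cKO and at 169.4 and 96.2 CPM in WT. Irf7, whose translation the OASL1 protein represses, was at 12.4 and 33.7 CPM in cKO and at 11.8 and 2.11 CPM in WT, and Usp18, a feedback inhibitor of the interferon receptor, had 236 and 858 counts in cKO and 204 and 16 counts in WT. In both genes the first libraries were close to each other, as they were for Oasl2. The receptor genes Ifnar1 and Ifnar2 had log2 fold changes of 0.16 and -0.07, and both overlapped between genotypes. The interferon genes listed (Ifna1, Ifna2, Ifna4, Ifnb1, Ifnl2, Ifnl3 and Ifng) were not found by symbol among the 21044 genes with expression values, so they were not analysed here.

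Most other interferon-stimulated genes listed were higher in cKO. Of 34 with counts, 28 were higher without overlap, where 15.8% of all genes tested were, and all 34 had a fitted log2 fold change above 0, where 48.2% did, with a median of 1.64. None passed edgeR, as 0% of all genes tested did, and Ifit3, Ifi44, Ifi27l2a and Iigp1 passed DESeq2, as 0.387% of 13448 genes did. The median log2 ratio of this list was 1.43 in WT replicate 1 over WT replicate 2 and 1.14 in cKO replicate 2 over cKO replicate 1, the same order of libraries as in the OAS genes, whose medians were 3.04 and 1.51. Iigp1, an immunity-related GTPase gene, was at 12.9 and 26.9 CPM in cKO and at 1.53 and 1.16 CPM in WT, so here the WT libraries were alike.

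**Figure D4:**
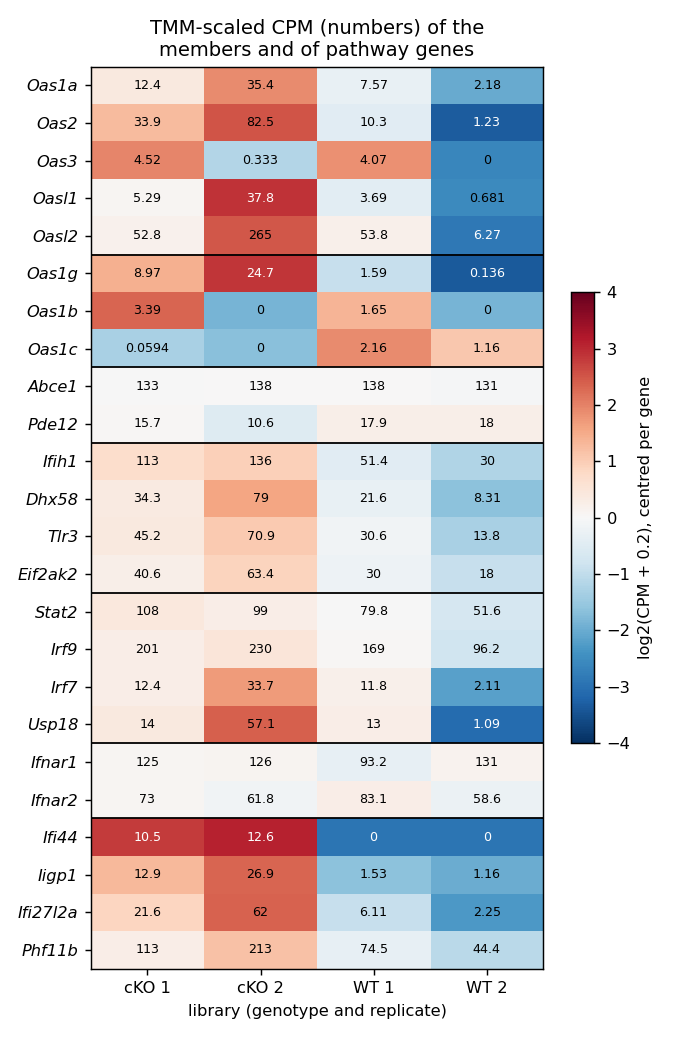
TMM-scaled CPM (printed in each cell) of the 5 genes and of pathway genes in the 4 libraries, cKO left of WT, coloured by log2(CPM + 0.2) centred per gene and grouped by lines into members, other OAS genes, Abce1 and Pde12, RNA sensors, signalling, receptors and other interferon-stimulated genes. For the members the lowest colour of each row is in WT replicate 2, while Abce1 at 132.9, 137.7, 137.7 and 131.1 CPM shows almost no colour.

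Genes whose levels followed each member most closely were taken among 8926 other named genes averaging 5 CPM or more, by the root mean square difference of log2 CPM centred over the 4 libraries. Nearest to Oasl2 were Usp18, Ifitm3 and Ifit2, at differences of 0.21, 0.33 and 0.36 on the log2 scale. Rsad2, Cmpk2 and Ifi211 were nearest to Oasl1, at 0.29, 0.30 and 0.33. For Oas2 they were Irgc1, Oas1g and Ifi211, at 0.39, 0.49 and 0.58, and for Oas1a they were Gdf15, Kif9 and Zfp654, at 0.09, 0.14 and 0.18. Of these genes, Gpr141, Slfn5 and Akap7 were nearest to Oas3, at 1.34, 1.38 and 1.62. Oas3 itself averaged less than 5 CPM, at 2.42 CPM in cKO and 2.04 CPM in WT, so genes at its own level were not searched. Among the members themselves, Oasl1 and Oasl2 were the most alike, at 0.38, and Oas3 was at least 2.45 from each of the other 4. With 4 libraries such likeness is a description of these profiles.

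Markers of other cells moved with some of these libraries. Neutrophil and monocyte markers, 14 of 15 listed having counts, summed to 284.9 and 412 CPM in cKO and to 242.8 and 283.3 CPM in WT, and 5, 3, 3 and 3 of them had no count in cKO replicates 1 and 2 and WT replicates 1 and 2. Of the 9 of these genes that were tested, 3 were higher and 1 lower without overlap, where 15.8% and 20.0% of all genes tested were. Over all 14, with those not tested, 4 were higher and 1 lower. Of the 9 that were tested with edgeR, 7 had a fitted fold change above 0 (48.2% of all genes tested). The median of the 9 was 1.19 on the log2 scale. None passed edgeR (0% of all genes tested), and 2 passed DESeq2 (0.387% of 13448 genes), with Ngp higher and Mmp8 lower. Ngp, Camp, Ltf, Mmp8, Ly6g, Elane and Mpo were at 0 in at least 1 library. Astrocyte markers (12 of 12 listed) summed to 260.7 and 546.2 CPM in cKO and to 238.4 and 190.3 CPM in WT. Of the 11 that were tested, 7 were higher and 0 lower without overlap, where 15.8% and 20.0% of all genes tested were. Over all 12, 7 were higher and 1 was lower. All 11 that were tested had a fitted fold change above 0 (48.2% of all genes tested). Their median was 1.44 on the log2 scale, and none passed either test. Fgfr3, S100b and Slc4a4 were at 0 in at least 1 library. Markers of lymphocytes and plasmacytoid dendritic cells, 4 of 8 listed having counts, summed to 2.26 and 7.39 CPM in cKO and to 1.97 and 0.409 CPM in WT. The sums for border-associated macrophages ranged from 509.1 to 553.6 CPM, for oligodendrocyte lineage cells from 86.0 to 166.1 CPM, for neurons from 5.16 to 15.8 CPM and for vascular cells from 20.9 to 31.9 CPM over the 4 libraries. The part of such cells in the OAS levels was not tested.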

How the data were processed

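RNA-seq was made from microglial RNA of 4 libraries, 2 cKO and 2 WT. Alignment and counting tools were TopHat2 2.0.12, Bowtie2 2.2.3 and HTSeq 0.6.0, with mm9 as the build, per the submitters' processing notes. Their settings, the strand and the annotation: not given in the sources used here. Positions in the deposited table matched GENCODE M21 on GRCm38 for 92.1% of 21008 shared genes, so GRCm38 is used. The authors deposited FPKM values, and 4 tables with read counts per gene, a normalized signal and a fold change as a ratio (neither used here), and log2 fold changes and p-values of 1 library against 1, per the file headers. No source used here names the test behind them.

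Counts were joined for 18459 genes, and tables that hold the same library had 0 conflicting counts. Where a library's count was absent from its tables (4315 of 73836 cells, the highest being 4), it was recovered from FPKM, and 100.0% of these were whole within 1e-06. The other 2585 genes had FPKM only and were not tested. The replicates differed by more than sampling noise (chi-square per degree of freedom 107.5 in cKO and 27.8 in WT) and were kept apart.

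The test was edgeR 4.0.16 in R 4.3.3 (TMM, filterByExpr, quasi-likelihood F test, Benjamini-Hochberg adjustment over 13086 genes, threshold 0.05), with standard errors derived from the F statistic. All 5 members passed the filter, Oas3 through the first libraries of each genotype. Alternatives were DESeq2 1.42.0, RLE factors, total counts, 2 other filters, limma 3.58.1 on log2(FPKM + 1) and log2(FPKM + 0.1), a replicate block, and leaving out each library. Ratios of single libraries have 95% exact binomial intervals, and a count of 0 was set to a floor of 3 counts, both covering counting error only. Log2 medians and profiles added 0.5 counts.

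Members and gene lists were chosen with earlier results of these data known. Named genes are the 5 members, up to 4 genes per list with the smallest edgeR p, some pathway genes fixed by name, Lag3 and Cx3cr1, and the 3 genes nearest to each member; any other named gene was picked with its value in view. The scripts were tested on simulated data. A few genes of the lists are counted in them but not reported here.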

Additional observations from a re-analysis of the deposited data

How the results depend on the processing

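No member passed the threshold in any of the 12 alternative fits, where the lowest adjusted p was 0.0620 (Oas2, DESeq2). Over all genes, 0 passed edgeR (608 at an unadjusted p under 0.05) and 52 passed DESeq2, while edgeR on 3 libraries gave 0 to 748, with 748 without cKO replicate 1. There the single remaining cKO library is taken to vary as the WT libraries do. The log2 fold change ranged over leaving out each library from 1.35 to 3.44 for Oas1a, 2.49 to 5.55 for Oas2, 1.27 to 4.95 for Oasl1, 0.81 to 4.65 for Oasl2 and -2.59 to 8.24 for Oas3, which alone turned sign and had no fit with at least 10 counts in every library of 1 group. The members higher without overlap numbered 3 by CPM or FPKM, and 3 to 5 when a library was left out, a choice made after the data were seen, with 5 without WT replicate 1 (where 24.6% of all genes tested were so) and 4 without cKO replicate 2 (where 36.0% were). Same-numbered libraries are not said to be related, and their deviations did not go together (a correlation of -0.03 over the genes tested). Under the replicate block 0 genes passed, and the values were 2.35 for Oas1a, 3.80 for Oas2, 1.85 for Oas3, 3.08 for Oasl1 and 2.64 for Oasl2. Depth limits Oas3, whose counts were at most 76.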

Other observations

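The interferon-stimulated response element core (GAAA, any 2 bases, GAAA) was present in 3.44% of all windows, counted by window. Counted by gene, with a match in any window of the gene, it was in 15 of 28 other interferon-stimulated genes with a window. It was in 3 of 9 genes listed as double-stranded RNA sensors and adaptors (Ddx58, Eif2ak2 and Ifih1), against 2 of the 4 members with a window. A gene with several windows has more chances of a match, so the share by window is not on the same base.

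Of the listed genes around the DNA sensor cGAS, whose enzyme shares the OAS fold, 4 had counts. Their median log2 fold change was 0.27, against 2.40 for the 5 OAS genes and -0.03 over all genes tested. Mb21d1, which encodes cGAS, was at 3.03 and 3.01 FPKM in cKO and at 1.91 and 4.08 FPKM in WT, so the genotypes overlapped. Tmem173, encoding the adaptor STING, was at 15.9 and 21.2 CPM in cKO and at 11.8 and 12.8 CPM in WT, a fitted log2 fold change of 0.59 (SE 0.46). Samhd1, a nucleotide hydrolase gene, was at 81.4 and 142.5 CPM in cKO and at 96.8 and 54.4 CPM in WT. Of the 4 genes with counts, Enpp1 among them, none passed edgeR (0% of all genes tested) or DESeq2 (0.387% of 13448 genes).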
